A study of Mus musculus with 8 samples.

Results

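The comparison described here sets the crypt library titled VEMD4 against the crypt library titled VEMD3, gene by gene. Both are RNA libraries of intestinal crypts from mice of genotype setdb1 iIEC-KO, in which tamoxifen switches on a Villin-driven recombinase (Villin-CreERT2) that deletes Setdb1 in cells of the intestinal epithelium. They are 2 of the 8 samples of the series. The series also holds crypts of VEMD2, VEMD6 and VEMD8 with the same genotype label, crypts of a WT littermate with floxed Setdb1 (setdb1fl/fl), and 2 stem cell samples that were not used here. All 6 crypt libraries came from C57BL/6 mice aged 8 weeks per the sample labels, and tamoxifen was given as 1 dose of 800 mg/kg by gavage, to WT littermates too. The labels neither spell out VEMD nor say how many mice stand behind a library. Days are mentioned in the title of the gene table, but the libraries carry no time label, and the numbers serve here as names. The Villin promoter is active in epithelium, so other cells that came along with the crypts keep an intact Setdb1. Members were chosen by expression alone: of the 20718 lines of the gene table, 16958 held values, and 10862 genes had a mean of at least 1 FPKM (fragments scaled for gene length and library size) over the 6 crypt libraries. The WT library entered this filter but no ratio between VEMD4 and VEMD3.

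Each library is a group of its own, so no difference below was tested, no value carries an error, and higher and lower describe these libraries only. A ratio is log2((VEMD4 + 1)/(VEMD3 + 1)) of FPKM, so that 1 stands for a 2-fold higher and -1 for a 2-fold lower value, and the added 1 FPKM shrinks the ratio of genes with low values. A gene is called higher or lower from 2-fold on. In bulk RNA, fewer cells of a type and less RNA per cell cannot be told apart.

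SETDB1 is a methyltransferase that places repressive marks on histone H3 and keeps endogenous retroviruses and other repeats silent. The intestinal epithelium renews itself from stem cells at the crypt base. Their offspring divide, move up the villus and become absorptive enterocytes, mucus-making goblet cells, hormone-making enteroendocrine cells or tuft cells, while Paneth cells stay at the crypt base and release antimicrobial peptides. Interferons are cytokines that switch on a set of antiviral genes through transcription factors that bind a short response element in the promoters of these genes.

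Setdb1 itself (chr3:95323525-95357202, GRCm38) measured 7.03 FPKM in VEMD3 and 5.49 in VEMD4, with 9.42 in WT, 6.64 in VEMD2, 3.53 in VEMD6 and 4.95 in VEMD8. Its ratio of VEMD4 to VEMD3 was -0.31, so transcripts of the floxed gene were present in both libraries, and all 5 knockout libraries lay below WT. Whether these transcripts span the deleted part cannot be read from a value per gene. The labelled tissue was checked against epithelial markers: all 13 tested genes of a list that holds Epcam, Cdh1 and Vil1 lay under 2-fold between VEMD3 and VEMD4, with a median ratio of 0.05. Epcam, an epithelial adhesion molecule, measured 785 FPKM in VEMD3 and 904 in VEMD4. Genes of the Y chromosome (4 tested) were expressed in all 6 libraries, with ratios from -0.07 to 0.15 between VEMD4 and VEMD3.

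In VEMD4, 280 genes were at least 2-fold higher than in VEMD3, which is 2.58% of the genes tested, and 60 genes were at least 2-fold lower, which is 0.552%. Higher genes made up 82.4% of all 340 genes past 2-fold. The middle of the distribution lay on the other side: 67.7% of all genes had a negative ratio, and the median ratio was -0.13, with 5% of genes under -0.47 and 5% above 0.67. From 4-fold on, 39 genes were higher and 13 lower, and from 8-fold on 5 and 4. Of the higher genes, 25 were under 1 FPKM in VEMD3, and of the lower genes, 7 were under 1 FPKM in VEMD4. These could pass the filter through the library in which they were high, and 82 tested genes were under 1 FPKM in both libraries. The nearest neighbours in the naming give a scale for these counts, although each shares a library with the next. VEMD3 against VEMD2 had 156 genes higher (1.44%) and 121 lower (1.11%). VEMD6 against VEMD4 had 529 higher (4.87%) and 1045 lower (9.62%), and VEMD8 against VEMD6 had 157 higher (1.45%) and 241 lower (2.22%). Among these 4 pairs, higher genes outnumbered lower ones in VEMD4 against VEMD3 and in VEMD3 against VEMD2.

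**Figure D1:**
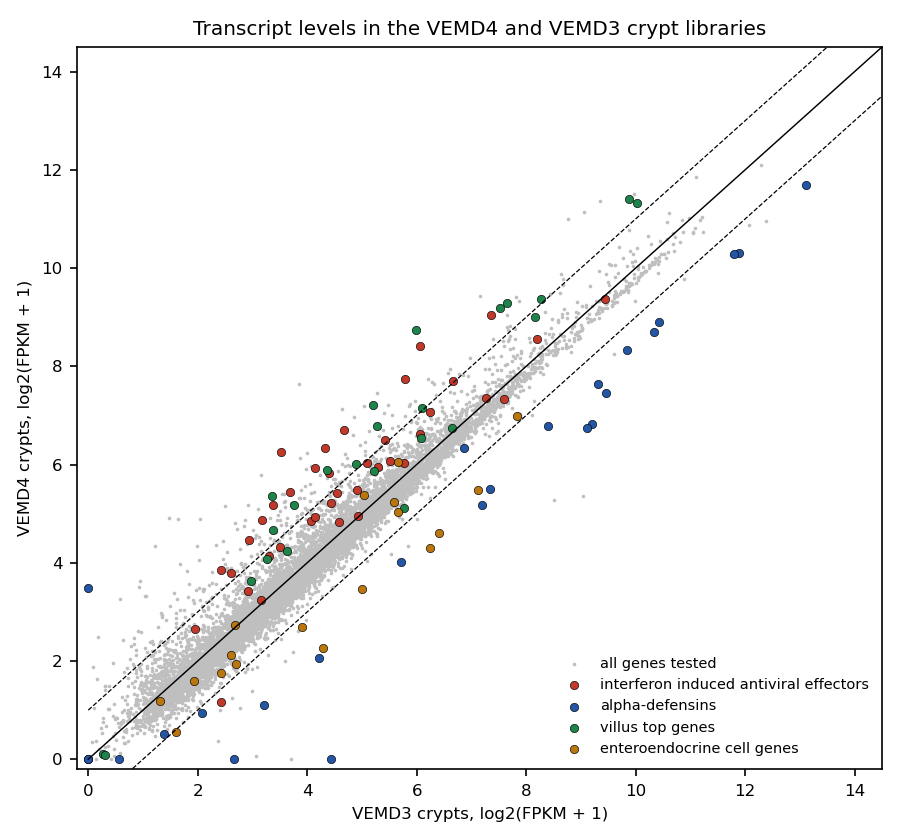
Levels of all 10862 genes tested as log2(FPKM + 1), with VEMD3 crypts on the horizontal and VEMD4 crypts on the vertical axis (1 point per gene). The solid line marks equal levels and the dashed lines 2-fold differences; antiviral genes and villus top genes lie mostly above the solid line, alpha-defensins mostly below the lower dashed line.

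Of the 280 higher genes, 178 stand in none of the gene lists, and of the 60 lower genes, 23. Every list count below is to be read beside 2.58% of all genes tested that were higher and 0.552% that were lower. Among the higher genes that stand in a list, a wide group was the antiviral program that interferons induce. Of 42 genes listed, 41 had values and 39 were tested. Of these, 16 were at least 2-fold higher in VEMD4, 1 was lower, and the median ratio was 0.83, against -0.13 over all genes. Promoters are shown for the 4 members with the highest ratios among those that carry the interferon response element in a simple form, 2 GAAA boxes set 2 bases apart (GAAANNGAAA, where N is any base, searched on both strands; on the other strand it reads TTTCNNTTTC). Each is the 250 bases before an annotated start on the gene's own strand, 5′ to 3′, from RefSeq on GRCm38.p6, with the match in capitals.
Rsad2: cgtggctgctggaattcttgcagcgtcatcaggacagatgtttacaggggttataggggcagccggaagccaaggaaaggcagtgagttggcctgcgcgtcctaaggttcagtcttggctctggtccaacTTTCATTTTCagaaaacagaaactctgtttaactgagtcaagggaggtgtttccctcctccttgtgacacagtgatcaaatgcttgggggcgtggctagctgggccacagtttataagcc
Ifit1bl1: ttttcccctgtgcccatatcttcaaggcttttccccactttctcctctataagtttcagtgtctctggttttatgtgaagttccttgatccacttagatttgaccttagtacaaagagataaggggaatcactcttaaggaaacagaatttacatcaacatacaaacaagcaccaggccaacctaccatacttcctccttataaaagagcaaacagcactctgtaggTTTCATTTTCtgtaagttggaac
Ifit1: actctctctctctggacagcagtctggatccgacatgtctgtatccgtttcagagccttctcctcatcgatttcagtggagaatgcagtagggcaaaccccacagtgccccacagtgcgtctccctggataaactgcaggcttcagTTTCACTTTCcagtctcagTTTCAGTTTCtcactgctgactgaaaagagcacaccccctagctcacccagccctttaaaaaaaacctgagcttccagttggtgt
Ifit3: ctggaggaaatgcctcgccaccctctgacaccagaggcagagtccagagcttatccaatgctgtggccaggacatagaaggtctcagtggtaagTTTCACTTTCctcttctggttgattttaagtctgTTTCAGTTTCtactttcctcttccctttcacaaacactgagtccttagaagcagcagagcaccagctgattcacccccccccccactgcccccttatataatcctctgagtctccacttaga
The windows lie at chr12:26456453-26456702 on the minus strand for Rsad2, chr19:34599428-34599677 on the minus strand for Ifit1bl1, chr19:34640639-34640888 on the plus strand for Ifit1, and chr19:34583279-34583528 on the plus strand for Ifit3. Ifit1bl1 has another annotated start, whose window also holds a match and is not printed. The annotated extents of Ifit1bl1 (up to chr19:34662981) and Ifit3 (from chr19:34583119) reach upstream of the starts used here. Counted from the start, the match begins at position -120 in Rsad2 and -23 in Ifit1bl1. Ifit1 has matches at -104 and -85, and Ifit3 at -156 and -122.

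The element was looked for in windows from 250 bases before to 50 after the start. It was present in 1079 of 27025 genes with a promoter in the RefSeq table (4.0%) and in 345 of 8804 tested genes (3.9%). Among tested members of the antiviral list, 14 of 29 held it (48.3%). Of the members at least 2-fold higher in VEMD4, 8 of 14 held it (57.1%), and of the other tested members, 6 of 15 (40.0%), among them the lower gene Trim30d. None of 21 Paneth cell genes and none of 21 villus top genes had a match. A match is a description of the letters in this window, and a promoter without one may hold the element elsewhere or in another spelling.

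Rsad2, which encodes viperin, an enzyme that stops viral RNA synthesis, measured 10.5 FPKM in VEMD3 and 75.5 in VEMD4, with 6.54 in WT, 4.73 in VEMD2, 24.9 in VEMD6 and 24.9 in VEMD8, a ratio of 2.74. Ifit1bl1, of the family of proteins that bind viral RNA and with an annotated extent that reaches across Ifit1, measured 65.8 FPKM in VEMD3 and 342 in VEMD4, with 52.1 in WT, 33.4 in VEMD2, 104 in VEMD6 and 101 in VEMD8 (2.36). Ifit1, of the same family, measured 18.9 FPKM in VEMD3 and 79.6 in VEMD4, with 18.97 in WT, 12.5 in VEMD2, 30.7 in VEMD6 and 32.4 in VEMD8 (2.02). In each of these genes VEMD4 was the highest of the 6 libraries and VEMD3 lay between WT and VEMD6 or at the level of WT. Reads in stretches that Ifit1bl1 and Ifit1 share could be counted for either gene, since the use of strand is not stated. Isg15, a ubiquitin-like protein that is coupled to newly made proteins, measured 163 FPKM in VEMD3 and 531 in VEMD4, with 72.04 in WT, 61.3 in VEMD2, 146 in VEMD6 and 138 in VEMD8 (1.69). Usp18, the protease that removes ISG15 and dampens interferon receptors, measured 24.4 FPKM in VEMD3 and 102 in VEMD4, with 19.19 in WT, 14.9 in VEMD2, 44.7 in VEMD6 and 28.1 in VEMD8 (2.03). Irf7, the transcription factor that amplifies the response, measured 73.1 FPKM in VEMD3 and 213 in VEMD4, with 41.8 in WT, 39.1 in VEMD2, 79.4 in VEMD6 and 64.6 in VEMD8 (1.53). For these too VEMD4 stood above every other library.

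Ifit2 measured 9.4 FPKM in VEMD3 and 34.96 in VEMD4 (1.79), and Ifit3, which has the near copy Ifit3b, 11.8 FPKM in VEMD3 and 42.3 in VEMD4 (1.76). Both were lower in VEMD6 and VEMD8 than in VEMD3, with Ifit2 at 6.37 and 4.62 FPKM. Slfn2, a schlafen family member of leukocytes and other cells, measured 16.6 FPKM in VEMD3 and 59.5 in VEMD4 (1.79). Trim30a, a feedback regulator of inflammatory signalling, measured 7.99 FPKM in VEMD3 and 28.3 in VEMD4 (1.70). The single lower member was its relative Trim30d with 4.37 FPKM in VEMD3 and 1.25 in VEMD4, with 10.04 in WT, 5.31 in VEMD2, 22.6 in VEMD6 and 9.14 in VEMD8 (-1.25). Trim30 genes lie among near copies on chromosome 7, so reads could be divided between them. Other members lay near equal levels: the membrane proteins Ifitm3 (698 FPKM in VEMD3 and 661 in VEMD4) and Ifitm2 (193 FPKM in VEMD3 and 159 in VEMD4) had ratios of -0.08 and -0.27, and the virus tether Bst2 had 0.09.

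The OAS family senses double-stranded RNA and activates RNase L. Of its 10 tested genes, 4 were at least 2-fold higher, with a median of 0.76. Oasl1, a relative that has lost the enzyme activity, measured 54.5 FPKM in VEMD3 and 212 in VEMD4, with 39.3 in WT, 28.1 in VEMD2, 179.9 in VEMD6 and 118 in VEMD8 (1.94), so VEMD6 stayed near the level of VEMD4. Oas2 measured 13.8 FPKM in VEMD3 and 43.8 in VEMD4, with 1.35 in WT, 4.79 in VEMD2, 2.06 in VEMD6 and 8.6 in VEMD8 (1.59), and here VEMD6 was close to WT. Oas1a, an active enzyme of the family, was under 2-fold with 89.7 FPKM in VEMD3 and 131 in VEMD4 (0.55).

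Among 17 tested sensors of nucleic acids and their adaptors, 2 were higher and none lower, with a median of 0.55. Ddx60, a helicase that supports RNA sensing, measured 15.8 FPKM in VEMD3 and 61.5 in VEMD4, with 12.3 in WT, 9.13 in VEMD2, 16.8 in VEMD6 and 34.01 in VEMD8 (1.90). Trex1, the nuclease that clears DNA from the cytosol, measured 7.64 FPKM in VEMD3 and 21.9 in VEMD4 (1.41). Zbp1, a sensor of left-handed nucleic acids that can start necroptosis, stayed under 2-fold with 74.3 FPKM in VEMD3 and 133 in VEMD4, with 64.8 in WT, 56.8 in VEMD2, 98.98 in VEMD6 and 69.2 in VEMD8 (0.83). VEMD4 was the highest library for each of these 3 genes. The RNA sensors Ifih1 and Dhx58 had ratios of 0.82 and 0.92. In the list of receptors, kinases and factors that relay the signal, 3 of 22 were higher and none lower (median 0.22), among them Socs3, a feedback inhibitor, with 13.1 FPKM in VEMD3 and 28.3 in VEMD4 (1.06). Stat2 had a ratio of 0.57.

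The interferons themselves could be read only in part, since 9 were listed and 5 had values. These 5 were nearly absent: none reached a mean of 1 FPKM, all were under 1 FPKM in both libraries, and Ifne and Ifnl3 were listed at 0 in both. Ifng measured 0.1 FPKM in VEMD3 and 0.2 in VEMD4. Genes that answer mostly to interferon gamma had smaller medians than the antiviral list. Of 16 GBP and IRG GTPases, which attack the vacuoles of microbes, 2 were higher and none lower, with a median of 0.39. Gbp8 measured 9 FPKM in VEMD3 and 29.2 in VEMD4 (1.60), while Tgtp2, which has the near copy Tgtp1, measured 13 FPKM in VEMD3 and 6.95 in VEMD4 (-0.82). Class I antigen processing had no member past 2-fold among 23, with a median of 0.13. B2m, the light chain of class I molecules, measured 1038 FPKM in VEMD3 and 1364 in VEMD4 (0.39), and the immunoproteasome subunit Psmb8 227 FPKM in VEMD3 and 168 in VEMD4 (-0.43).

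Class II genes, which present peptides to CD4 T cells, leaned to lower values: 1 of 9 was at least 2-fold lower, none was higher, and the median was -0.54. The called member was Ciita, the master activator of the class, with 8.72 FPKM in VEMD3 and 3.33 in VEMD4, with 14.4 in WT, 15.7 in VEMD2, 10.9 in VEMD6 and 3.7 in VEMD8 (-1.17), which put VEMD4 below every other library. H2-Eb1 measured 236 FPKM in VEMD3 and 129.9 in VEMD4 (-0.86) and Cd74, the invariant chain, 1360.1 FPKM in VEMD3 and 950.2 in VEMD4 (-0.52).

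**Figure D2:**
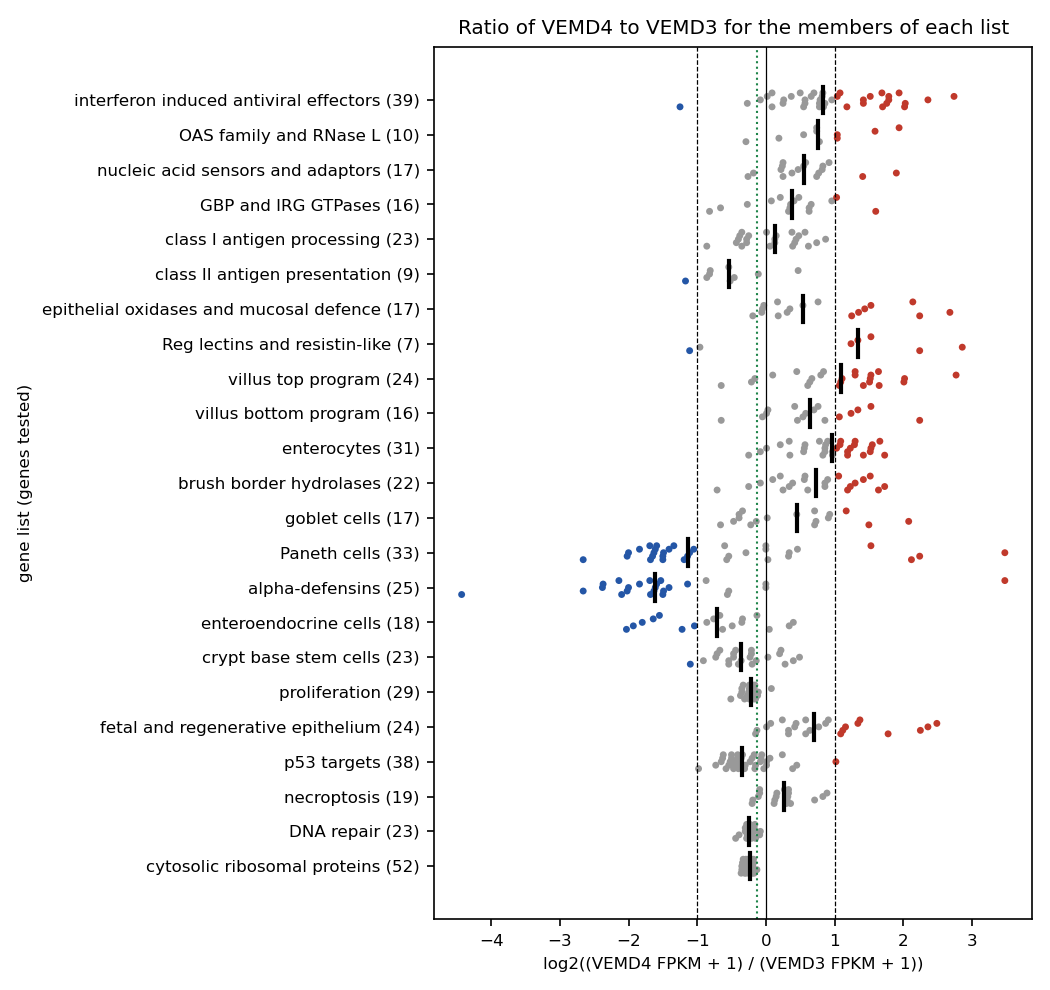
log2 ratio of VEMD4 to VEMD3 (horizontal axis) for every tested member of 23 gene lists (rows, with the number tested), 1 point per gene, at least 2-fold higher in red and lower in blue. Black bars are list medians, dashed lines mark 2-fold and the dotted line the median of all genes at -0.13; antiviral, villus and regenerative lists reach to the right, alpha-defensin and enteroendocrine lists to the left.

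Markers of leukocytes were read beside these values, since part of the genes above are also made by immune cells. All 13 tested T and NK cell genes had a positive ratio under 2-fold (median 0.33), and the 15 markers with values summed to 219.0 FPKM in VEMD3 and 284.9 in VEMD4. Gzma, a granzyme of intraepithelial lymphocytes, measured 74.7 FPKM in VEMD3 and 94.8 in VEMD4 (0.34). Of the 18 macrophage and dendritic cell markers, 7 were tested, none past 2-fold (median 0.67), and their sum was 29.5 FPKM in VEMD3 and 42.0 in VEMD4. Among those tested, Mrc1 and Tyrobp would have missed the filter without VEMD4. Adgre1 and Csf1r, which define macrophages, were under 1 FPKM in both. B and plasma cell markers summed to 5.2 FPKM in VEMD3 and 5.2 in VEMD4. Neutrophil and mast cell markers summed to 23.4 FPKM in VEMD3 and 80.4 in VEMD4, and 2 of the 5 tested were higher. Both are proteases of mucosal mast cells: Mcpt1 measured 10.9 FPKM in VEMD3 and 41.1 in VEMD4, with 6.26 in WT, 13.3 in VEMD2, 3.56 in VEMD6 and 2.35 in VEMD8 (1.82), and Mcpt2 4.53 FPKM in VEMD3 and 20.8 in VEMD4, with 2.78 in WT, 5.3 in VEMD2, 1.79 in VEMD6 and 1.02 in VEMD8 (1.98). These 2 proteases made up most of the sum. Kit, a receptor that mast cells carry, was the only one of the 5 tested with a negative ratio. It measured 1.83 FPKM in VEMD3 and 1.6 in VEMD4 (-0.12). The neutrophil genes S100a8 and S100a9, which did not pass the filter, measured 0 and 2.85 FPKM, and 0.12 and 3.58 FPKM, in VEMD3 and VEMD4. Of 20 markers of stroma, endothelium and muscle, 16 were under 1 FPKM in both libraries. The sums of the 3 larger leukocyte groups were thus higher in VEMD4, and their part in the antiviral and inflammatory differences was not tested.

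Genes of the villus formed the other wide group among the higher genes that stand in a list. Of 24 tested genes known from enterocytes at the villus top, 14 were at least 2-fold higher in VEMD4 and none lower (median 1.10). Of 31 enterocyte genes, 14 were higher and none lower (median 0.97), and 3 genes stand in both lists. Clca4a, a secreted regulator of chloride channels, measured 62.1 FPKM in VEMD3 and 429 in VEMD4, with 139 in WT, 21.4 in VEMD2, 81.9 in VEMD6 and 64.2 in VEMD8 (2.77). Ada, which breaks down adenosine, measured 199 FPKM in VEMD3 and 622 in VEMD4, with 291 in WT, 41.4 in VEMD2, 700.1 in VEMD6 and 213 in VEMD8 (1.64). Slc28a2, a nucleoside transporter, measured 35.6 FPKM in VEMD3 and 148 in VEMD4, with 19.9 in WT, 7.88 in VEMD2, 40.3 in VEMD6 and 18.6 in VEMD8 (2.02). In Clca4a and Slc28a2 VEMD4 was the highest library, while for Ada VEMD6 was higher still and VEMD2 lowest. Atf3, a stress-induced transcription factor, measured 9.19 FPKM in VEMD3 and 40.1 in VEMD4 (2.01), and Klf4, a factor of differentiated cells, 19.6 FPKM in VEMD3 and 57.9 in VEMD4 (1.51). The inflammasome sensor Nlrp6 was on the other side of the list with 53.8 FPKM in VEMD3 and 33.9 in VEMD4 (-0.65).

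Alpi, the alkaline phosphatase of the brush border, measured 43.7 FPKM in VEMD3 and 148 in VEMD4, with 214 in WT, 61.96 in VEMD2, 1585 in VEMD6 and 925 in VEMD8 (1.73). Slc15a1, the peptide transporter, measured 17.7 FPKM in VEMD3 and 53.9 in VEMD4, with 69.3 in WT, 29.6 in VEMD2, 121 in VEMD6 and 52.2 in VEMD8 (1.55), and Slc6a19, which takes up neutral amino acids, 24.7 FPKM in VEMD3 and 72.7 in VEMD4, with 94.1 in WT, 40.6 in VEMD2, 263 in VEMD6 and 92.3 in VEMD8 (1.52). For all 3, VEMD3 was the lowest of the 6 libraries, VEMD4 was below WT, and VEMD6 was highest. The difference between VEMD3 and VEMD4 here thus lay within the range that WT and VEMD3 span. Apoa4, an apolipoprotein of chylomicrons, measured 1039.9 FPKM in VEMD3 and 2571 in VEMD4, with 3196 in WT, 574 in VEMD2, 4304 in VEMD6 and 1585 in VEMD8 (1.30), and Apoa1 939.9 FPKM in VEMD3 and 2709 in VEMD4 (1.53).

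Brush border hydrolases had 8 of 22 members higher and none lower (median 0.73), and genes of fat absorption 7 of 26 higher and none lower (median 0.69). These lists share genes with the enterocyte list, 12 and 6 tested members. Anpep, an aminopeptidase, measured 399 FPKM in VEMD3 and 936 in VEMD4 (1.23), and Abca1, a cholesterol exporter, 0.94 FPKM in VEMD3 and 4.99 in VEMD4 (1.63). Lct, the lactase, and Treh, the trehalase, did not share the direction and had ratios of -0.08 and -0.26. In all, 3 hydrolases had a negative ratio, down to -0.71, and 3 genes of fat absorption, down to -0.61. Oxidation of fatty acids under PPAR control had no member past 2-fold among 24 (median 0.07). Genes typical of proximal small intestine had none among 18 (median 0.04), and genes of bile acid handling and ileum 2 of 14 higher (median 0.17), among them the bile acid exporter subunit Slc51b with 32.2 FPKM in VEMD3 and 72.4 in VEMD4 (1.14). All 6 libraries labelled crypts held villus transcripts at high levels, as the WT value of Apoa4 shows, and the part that villus material in the preparations has in these differences was not tested.

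Genes of the villus bottom, where antimicrobial defence is high, had 5 of 16 higher and none lower (median 0.64). Among 7 tested Reg lectins, resistin-like molecules and intelectins, 5 were higher and 1 lower (median 1.34). Reg3b, a lectin that kills bacteria, measured 434 FPKM in VEMD3 and 2051 in VEMD4, with 1687 in WT, 525 in VEMD2, 389 in VEMD6 and 9734 in VEMD8 (2.24), and Reg3g, its relative against Gram-positive bacteria, 1007 FPKM in VEMD3 and 2908 in VEMD4, with 1571 in WT, 794 in VEMD2, 677 in VEMD6 and 6988 in VEMD8 (1.53). VEMD8 was far above all others in both, and VEMD4 was second. Retnlb, a goblet cell protein of host defence, measured 3.1 FPKM in VEMD3 and 28.8 in VEMD4, with 0.41 in WT, 0.09 in VEMD2, 1.78 in VEMD6 and 52.8 in VEMD8 (2.86). The member that was lower was Itln1, a lectin of Paneth and goblet cells, with 1879 FPKM in VEMD3 and 872 in VEMD4, with 2199.6 in WT, 3112 in VEMD2, 232 in VEMD6 and 278 in VEMD8 (-1.11).

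Oxidases and other mucosal defence genes had 7 of 17 members higher and none lower (median 0.54). Duoxa2, the maturation factor of the epithelial peroxide-making oxidase, measured 31.99 FPKM in VEMD3 and 145 in VEMD4, with 23.7 in WT, 13.6 in VEMD2, 11.6 in VEMD6 and 52.9 in VEMD8 (2.14), and the oxidase Duox2 itself 38.7 FPKM in VEMD3 and 106 in VEMD4, with 18.8 in WT, 27.6 in VEMD2, 16.9 in VEMD6 and 37.97 in VEMD8 (1.44). Saa1, an acute phase protein, measured 0.93 FPKM in VEMD3 and 11.3 in VEMD4, with 0.59 in WT, 0.31 in VEMD2, 0.3 in VEMD6 and 0.61 in VEMD8 (2.68). VEMD4 had the highest level of all 3. Saa1 was under 1 FPKM in each of the other libraries and so passed the filter through VEMD4 alone. Its place among the higher genes is thus not independent of the filter. Nos2, which makes nitric oxide, measured 10.4 FPKM in VEMD3 and 28.1 in VEMD4 (1.35), and Ido1, which breaks down tryptophan and is itself induced by interferons, 25.8 FPKM in VEMD3 and 62.7 in VEMD4 (1.25). Lcn2, another epithelial defence gene, stayed at 3.24 FPKM in VEMD3 and 3.8 in VEMD4 (0.18).

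Goblet cell genes split. Of 17 tested, 3 were higher and none lower (median 0.45). Zg16, a lectin of the mucus layer, measured 532 FPKM in VEMD3 and 2249.6 in VEMD4, with 1659 in WT, 1095 in VEMD2, 83.7 in VEMD6 and 107 in VEMD8 (2.08). VEMD3 lay below WT and VEMD2, VEMD4 was the highest library, and VEMD6 and VEMD8 lay far below both. Fut2, which fucosylates mucus and surface glycans, measured 7.32 FPKM in VEMD3 and 22.6 in VEMD4 (1.5), and Clca1, a mucus protease, 167 FPKM in VEMD3 and 377 in VEMD4 (1.17). The mucin Muc2 (150.3 FPKM in VEMD3 and 246 in VEMD4) and the trefoil factor Tff3 (937 FPKM in VEMD3 and 1758 in VEMD4) had ratios of 0.71 and 0.91, while Agr2, Spink4 and Klk1 had -0.34, -0.66 and -0.47.

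On the side of the lower genes, Paneth cell transcripts were the main group among those that stand in a list. Of the 60 lower genes, 19 were alpha-defensins, antimicrobial peptides that Paneth cells pack into granules, and 6 had no symbol in the RefSeq table. Of 28 alpha-defensin genes with values, 25 were tested, and 19 were lower, 1 higher and 5 under 2-fold (median -1.61). Summed over these 28 genes, alpha-defensins made up 23056 FPKM in VEMD3 and 7939 in VEMD4, which is 4.32% and 1.55% of all FPKM of these libraries. A further 13 names of the list matched no gene. The sum leaves these out, as it does the genes without a symbol, so it may not cover the whole family. Defensin genes are near copies of each other in 1 cluster on chromosome 8, so reads could be divided between them, and the value of a single gene is uncertain where the sum is less so. Defa17, the highest member, measured 8807 FPKM in VEMD3 and 3321 in VEMD4, with 12801 in WT, 17679 in VEMD2, 792 in VEMD6 and 1357 in VEMD8 (-1.41). Defa24 measured 3785 FPKM in VEMD3 and 1259 in VEMD4, with 6600.3 in WT, 8843 in VEMD2, 586 in VEMD6 and 596 in VEMD8 (-1.59), and Defa36 588 FPKM in VEMD3 and 112 in VEMD4, with 943 in WT, 1601 in VEMD2, 136 in VEMD6 and 97.9 in VEMD8 (-2.38). For all 3, VEMD2 was highest, VEMD3 lower than WT, and VEMD4 lower again. Defa20, at 0 in VEMD3 and 10.2 FPKM in VEMD4, went the other way, and Defa32, at 20.5 FPKM in VEMD3, was listed at 0 in VEMD4. With no counts, no fold is given for these 2 genes.

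The wider Paneth cell list, which shares 16 tested members with the defensins, had 19 of 33 lower and 4 higher (median -1.14). Of the 17 members that are not alpha-defensins, 6 were lower and 3 higher (median -0.54). Lyz1, the lysozyme of Paneth cells, measured 4289 FPKM in VEMD3 and 1875 in VEMD4, with 4233 in WT, 6844 in VEMD2, 489.9 in VEMD6 and 896 in VEMD8 (-1.19). Ang4, an antimicrobial ribonuclease, measured 618 FPKM in VEMD3 and 196 in VEMD4, with 724 in WT, 1099 in VEMD2, 31.3 in VEMD6 and 63.03 in VEMD8 (-1.65), and Mptx2, a pentraxin of Paneth cells, 774 FPKM in VEMD3 and 305 in VEMD4 (-1.34). VEMD3 was at the level of WT for Lyz1 and below it for Ang4, and VEMD4 was lower again for both. Mmp7, the protease that activates defensins, stayed under 2-fold with 214 FPKM in VEMD3 and 141 in VEMD4 (-0.60). The higher members besides Defa20 were Reg3b and Reg3g, described above, and Pnliprp2, a pancreatic lipase relative, with 27.9 FPKM in VEMD3 and 125 in VEMD4, with 41.8 in WT, 50.2 in VEMD2, 57.6 in VEMD6 and 40.7 in VEMD8 (2.12). Clps, the colipase, which is made by the pancreas and also appears on the Paneth cell list, measured 56.4 FPKM in VEMD3 and 19.25 in VEMD4 (-1.5), while the other tested pancreas gene, Cela1, measured 3.84 FPKM in VEMD3 and 4.5 in VEMD4 (0.18). Sox9, a factor of crypt base cells, had a ratio of 0.04, and Wnt3, a ligand that Paneth cells give to stem cells, -0.57.

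The genes numbered 13222 and 13223, which have no symbol and were picked once their values were known, followed the same course at still larger ratios. Gene 13222 measured 527 FPKM in VEMD3 and 40.3 in VEMD4, with 2527 in WT, 3907 in VEMD2, 0 in VEMD6 and 0.83 in VEMD8 (-3.68). Gene 13223 measured 362 FPKM in VEMD3 and 37.9 in VEMD4, with 1401 in WT, 2488 in VEMD2, 0.57 in VEMD6 and 1.32 in VEMD8 (-3.22). Both were high in WT and VEMD2 and near 0 in VEMD6 and VEMD8. The other lower genes without a symbol differed in size. Genes 13240, 13216 and 13238 had ratios of -1.42, -1.48 and -1.55, near the defensin median of -1.61, and gene 13219 had -3.71.

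Enteroendocrine genes had 7 of 18 tested members lower and none higher (median -0.71). Chga, a granule protein found in most of these cells, measured 74.3 FPKM in VEMD3 and 18.8 in VEMD4, with 34.8 in WT, 46.3 in VEMD2, 10.2 in VEMD6 and 3.39 in VEMD8 (-1.93), and Chgb, its relative, 139 FPKM in VEMD3 and 43.7 in VEMD4, with 60.5 in WT, 99.2 in VEMD2, 15.7 in VEMD6 and 8.16 in VEMD8 (-1.64). Gcg, the precursor of glucagon-like peptides, measured 83.6 FPKM in VEMD3 and 23.4 in VEMD4, with 35.9 in WT, 68.1 in VEMD2, 1.24 in VEMD6 and 0.67 in VEMD8 (-1.80). Tac1, the precursor of substance P, measured 18.6 FPKM in VEMD3 and 3.79 in VEMD4, with 10.3 in WT, 16.3 in VEMD2, 0.58 in VEMD6 and 0.54 in VEMD8 (-2.03). All 4 were highest in VEMD3, above WT, and VEMD4 was below WT. Ghrl, the precursor of ghrelin, measured 31.1 FPKM in VEMD3 and 10 in VEMD4 (-1.55), Cpe, a hormone-processing carboxypeptidase, 13.9 FPKM in VEMD3 and 5.42 in VEMD4 (-1.22), and Scgn, a calcium sensor, 2.03 FPKM in VEMD3 and 0.47 in VEMD4 (-1.04). The hormones did not move as 1 block. Gip and Cck had ratios of -0.86 and -0.63, Sst had -0.35, and Sct and Nts, hormones that these cells make higher up the villus, had 0.40 and 0.34. Of 16 tuft cell markers with values, 4 were tested, and 1, the brush border bundler Espn, which enterocytes also make, was higher (17.1 FPKM in VEMD3 and 36.8 in VEMD4, 1.06). The tuft cell genes Gfi1b and Sucnr1 were listed at 0 in both libraries.

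**Figure D3:**
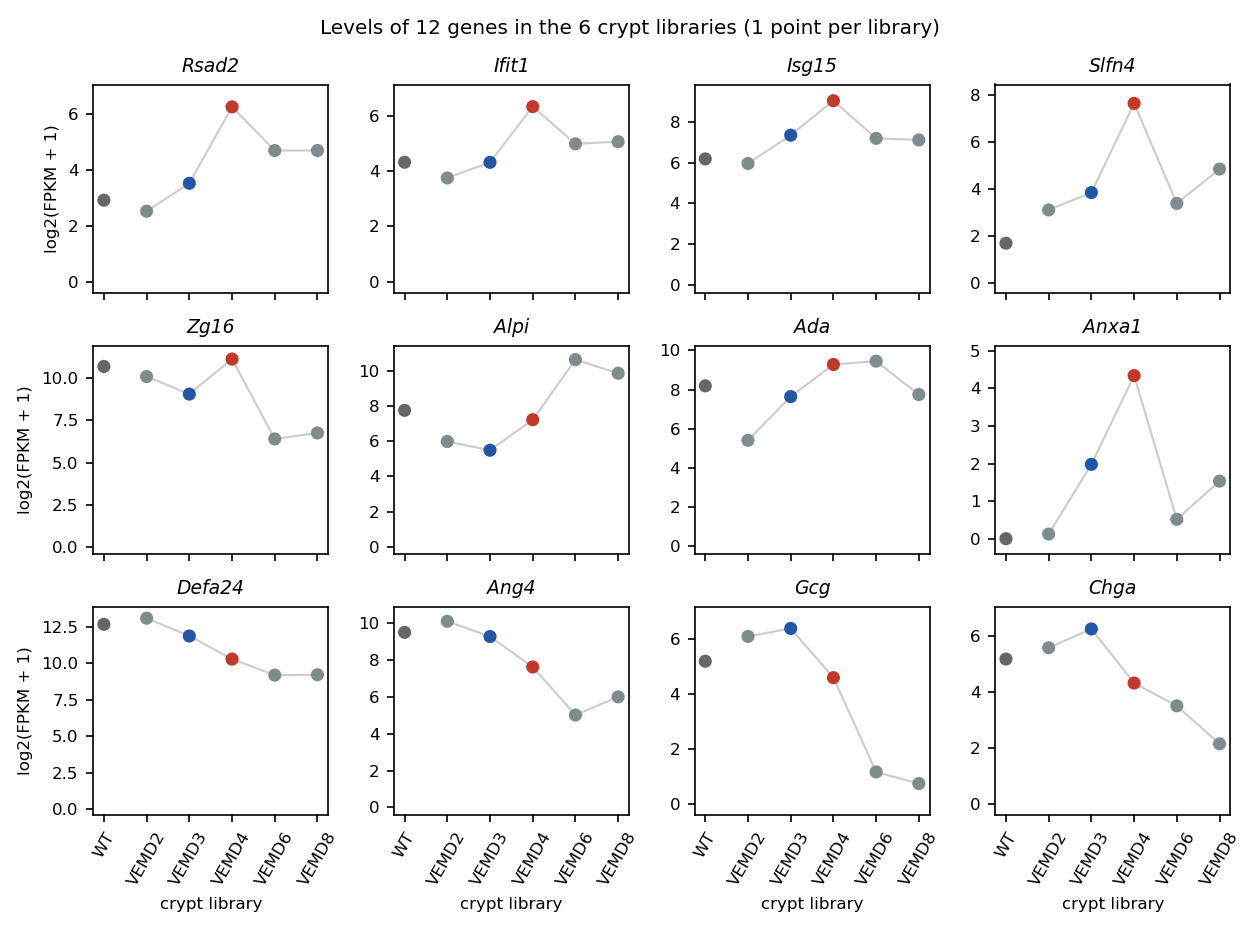
Levels of 12 genes as log2(FPKM + 1) (vertical axis) in the 6 crypt libraries (horizontal axis), 1 point per library, VEMD3 in blue and VEMD4 in red, with a line through the knockout libraries in the order of their numbers. The antiviral genes, Slfn4, Zg16 and Anxa1 peak in VEMD4, Alpi and Ada are higher in VEMD6, and Defa24, Ang4, Gcg and Chga are lower in VEMD4 than in VEMD3.

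Genes of crypt base stem cells had a median of -0.36, against -0.13 over all genes. Of the 23 tested, 1 was lower and none higher, beside 0.552% of all genes tested that were lower. A negative ratio was found for 17 of the 23 and a positive one, up to 0.49, for 6. Over all genes tested, 67.7% had a negative ratio. The called gene was Olfm4, a secreted glycoprotein of these cells, with 276 FPKM in VEMD3 and 129 in VEMD4, with 574 in WT, 479.9 in VEMD2, 154 in VEMD6 and 300.4 in VEMD8 (-1.10), so VEMD4 was the lowest library. Smoc2, another stem cell gene, measured 26.7 FPKM in VEMD3 and 16 in VEMD4 (-0.71), and Ascl2, the transcription factor that maintains them, 9.99 FPKM in VEMD3 and 7.31 in VEMD4 (-0.40). Lgr5, the receptor that defines them, was near the filter and went the other way, with 0.71 FPKM in VEMD3 and 1.07 in VEMD4. Targets of Wnt, the signal that maintains the stem cells, had no member past 2-fold among 19 (median -0.21), with Axin2 at -0.44. The Notch pathway had none among 14 (median -0.22), with its target Hes1 at -0.60. The 4 tested reserve stem cell genes had a median of -0.34, with Tert, the catalytic part of telomerase, at 4.96 FPKM in VEMD3 and 2.25 in VEMD4 (-0.87).

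Proliferation genes showed a small shift in 1 direction, with none of 29 past 2-fold and a median of -0.21, close to the -0.13 of all genes. Ube2c, a ubiquitin enzyme of mitosis, had the largest ratio with 183 FPKM in VEMD3 and 128 in VEMD4 (-0.51). DNA repair genes were much the same (none of 23, median -0.24), with Parp1 at -0.44. Targets of p53, which answers to DNA damage, had 1 of 38 members higher and none lower, and a median of -0.35. That count of higher members is near the share over all genes tested (2.58%). The higher member was Pmaip1, which encodes the killer protein NOXA, with 17.5 FPKM in VEMD3 and 36.6 in VEMD4, with 17.02 in WT, 13.3 in VEMD2, 36.2 in VEMD6 and 27.9 in VEMD8 (1.02). Bbc3, which encodes the related PUMA, lay on the other side with 9.6 FPKM in VEMD3 and 4.37 in VEMD4, with 2.24 in WT, 6.16 in VEMD2, 1.82 in VEMD6 and 1.36 in VEMD8 (-0.98). Psrc1 and Trp53inp1, both highest in VEMD3, measured 37.7 FPKM in VEMD3 and 22.3 in VEMD4, with 2.55 in WT, 24.2 in VEMD2, 0.85 in VEMD6 and 0.7 in VEMD8 (-0.73) and 35.05 FPKM in VEMD3 and 22.2 in VEMD4, with 2.84 in WT, 15.98 in VEMD2, 1.73 in VEMD6 and 1.24 in VEMD8 (-0.63). VEMD4 thus stood below VEMD3 and above WT, VEMD6 and VEMD8 for Bbc3, Psrc1 and Trp53inp1.

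The cell death lists had few members past 2-fold, beside 2.58% of all genes tested that were higher and 0.552% that were lower. Of 19 necroptosis genes, none was past 2-fold (median 0.27). Mlkl, the protein that opens the membrane, measured 32.1 FPKM in VEMD3 and 41.5 in VEMD4 (0.36), Ripk1 12 FPKM in VEMD3 and 15.4 in VEMD4 (0.33) and Ripk3, the kinase that activates MLKL, 54.1 FPKM in VEMD3 and 46.97 in VEMD4 (-0.20). Tnfaip3, a brake on this pathway and on NF-kB, measured 7.99 FPKM in VEMD3 and 15.6 in VEMD4 (0.89). Of 23 genes of apoptosis, 1 was higher and none lower (median 0.11), again Pmaip1. Bcl2a1d, another tested member of that list, would have missed the filter without VEMD4. Of 19 genes of gasdermins and inflammasomes, 1 was higher (median 0.04), namely Il18, and the adaptor Pycard measured 52.3 FPKM in VEMD3 and 28.7 in VEMD4 (-0.84). Of 19 cytokines and chemokines, 2 were higher and none lower (median 0.31). Il33, an alarm cytokine released by damaged cells, measured 27.5 FPKM in VEMD3 and 96.7 in VEMD4, with 4.89 in WT, 8.26 in VEMD2, 30.8 in VEMD6 and 26.6 in VEMD8 (1.78), with VEMD4 far above the rest. Il18, which inflammasomes activate, measured 15.02 FPKM in VEMD3 and 32.7 in VEMD4 (1.07). NF-kB targets had none of 14 past 2-fold (median 0.29).

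Genes of the fetal-like state that repairing epithelium takes on had 9 of 24 tested members higher and none lower (median 0.70). Anxa1, an annexin that limits inflammation, measured 2.94 FPKM in VEMD3 and 19.23 in VEMD4, with 0 in WT, 0.09 in VEMD2, 0.43 in VEMD6 and 1.89 in VEMD8 (2.36). Ly6d, a surface protein of stratified epithelia, measured 23.9 FPKM in VEMD3 and 138 in VEMD4, with 1.72 in WT, 34.7 in VEMD2, 79.04 in VEMD6 and 47.5 in VEMD8 (2.49), and S100a6, a calcium-binding protein, 206 FPKM in VEMD3 and 450.2 in VEMD4, with 28.5 in WT, 56.5 in VEMD2, 52.6 in VEMD6 and 106 in VEMD8 (1.12). Each was highest in VEMD4, with VEMD3 above WT. Cldn4, a claudin, measured 57.6 FPKM in VEMD3 and 150.3 in VEMD4 (1.37), and Emp1, a membrane protein of wounded epithelium, 56.7 FPKM in VEMD3 and 145 in VEMD4 (1.34). Clu, a mark of revival stem cells, was under 2-fold with 40.6 FPKM in VEMD3 and 77.2 in VEMD4 (0.91), and Ly6a, which encodes SCA-1, with 789.5 FPKM in VEMD3 and 1075 in VEMD4 (0.44). The injury receptor Tnfrsf12a had -0.13. Targets of YAP, the effector of tissue repair, had 1 of 11 higher (median 0.30), and EGF ligands, receptors and feedback genes 1 of 13 (median 0.33), the phosphatase Dusp6 with 32.05 FPKM in VEMD3 and 86.95 in VEMD4 (1.41). Beside the 2.58% of all genes tested that were higher, counts of 1 member are not read as a result. Tead4 of the YAP list, which was under 2-fold, would have missed the filter without VEMD4.

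Keratins and the cornified envelope had 6 of 18 genes higher and none lower (median 0.32). They were Krt20, a keratin of mature enterocytes, and 5 small proline-rich proteins. Of these, Sprr2b, at 0.24 FPKM in VEMD3 and 1.67 in VEMD4, would have missed the filter without VEMD4. Sprr1a measured 6.56 FPKM in VEMD3 and 34.99 in VEMD4, with 5.72 in WT, 1.36 in VEMD2, 6.45 in VEMD6 and 2.79 in VEMD8 (2.25), and Sprr2a3, which has the near copies Sprr2a1 and Sprr2a2, 649 FPKM in VEMD3 and 2644 in VEMD4, with 603 in WT, 241 in VEMD2, 2941 in VEMD6 and 1453 in VEMD8 (2.02). Sprr1a was highest in VEMD4, whereas Sprr2a3 was as high in VEMD6. The common keratins Krt8, Krt18 and Krt19 had ratios of 0.05, 0.03 and 0.02.

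Immediate early genes, which cells switch on within minutes of a stimulus, had 4 of 25 higher and none lower (median 0.45). Dusp1, a phosphatase that stops stress kinases, measured 2.21 FPKM in VEMD3 and 14.8 in VEMD4, with 2.53 in WT, 1.19 in VEMD2, 1.87 in VEMD6 and 2.68 in VEMD8 (2.30), with VEMD4 well above the other libraries. Fos and Egr1, other members of the list, had ratios of 0.64 and 0.00. Genes of this list can answer to handling of tissue as well, and the part of handling in these values was not tested. Genes of glycolysis and hypoxia had 5 of 28 higher and none lower (median 0.29), among them Adm, a vessel-widening peptide, with 1.05 FPKM in VEMD3 and 8.96 in VEMD4, with 0.46 in WT, 0.7 in VEMD2, 1.59 in VEMD6 and 4.22 in VEMD8 (2.28), and Slc16a3, the lactate exporter, with 5.59 FPKM in VEMD3 and 24.6 in VEMD4, with 10.4 in WT, 4.65 in VEMD2, 46.5 in VEMD6 and 26.2 in VEMD8 (1.96). Adm peaked in VEMD4 and Slc16a3 in VEMD6. Metal ion genes had 2 of 20 higher (median 0.16), with the metallothionein Mt2 at 200.2 FPKM in VEMD3 and 527 in VEMD4 (1.39), and tight junction genes 1 of 18 (median 0.20). The counts of the metal ion and tight junction lists are not read as a result beside 2.58% of all genes tested that were higher.

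Stress and housekeeping lists stayed close to the median of all genes. Heat shock chaperones had none of 20 past 2-fold (median -0.28), with Hspa8 at 2415 FPKM in VEMD3 and 1702 in VEMD4 (-0.50). Chaperones of the endoplasmic reticulum had none of 25 (median -0.21), cytosolic ribosomal proteins none of 52 (median -0.23) and subunits of oxidative phosphorylation none of 44 (median -0.14). ATF4 targets (1 of 25 higher, median -0.10), NRF2 and glutathione genes (none of 25 past 2-fold, -0.05), cholesterol synthesis (none of 21, -0.05) and selenoproteins (1 of 19 higher, -0.10) had medians near 0, and their signs depend on how the libraries are scaled. Cytochromes P450 and drug metabolism had 1 of 29 higher and 1 lower (median -0.19), the latter Cyp3a11, a drug-metabolising enzyme, with 6.92 FPKM in VEMD3 and 1.61 in VEMD4, with 34.03 in WT, 7.63 in VEMD2, 21.4 in VEMD6 and 1.67 in VEMD8 (-1.60). Partners and readers of SETDB1 had none of 26 past 2-fold (median -0.24). Single members past 2-fold in the lists of this paragraph are not read as a result, beside 2.58% of all genes tested that were higher and 0.552% that were lower.

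Genes of germ cells and early embryos are a textbook class silenced by repressive chromatin. Of 34 with values, 7 were tested, and 2 were higher and none lower (median 0.62). Among the 7, Dppa5a, at 1.06 FPKM in VEMD3 and 1.95 in VEMD4 (0.52), would have missed the filter without VEMD4. Tex19.1, which guards germ cells against retrotransposons, measured 4.54 FPKM in VEMD3 and 15.99 in VEMD4, with 0 in WT, 0.2 in VEMD2, 13.1 in VEMD6 and 19.9 in VEMD8 (1.62), and Khdc1a, of a family of the early embryo, 25.3 FPKM in VEMD3 and 69.6 in VEMD4, with 0.16 in WT, 4.99 in VEMD2, 12.5 in VEMD6 and 29.9 in VEMD8 (1.42). Tex19.1 was at or near 0 in WT and VEMD2 and stayed up in VEMD6 and VEMD8, whereas Khdc1a was highest in VEMD4. Of 13 clustered protocadherins with values, 1 was tested.

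Among genes whose mean reached 5 FPKM, the 4 with the highest ratios, Slfn4, Bmp2, Gml2 and Anxa10, stand in none of the lists. Slfn4 (chr11:83175172-83190216), a schlafen gene that interferons induce in myeloid cells, measured 13.4 FPKM in VEMD3 and 198 in VEMD4, with 2.25 in WT, 7.65 in VEMD2, 9.48 in VEMD6 and 27.8 in VEMD8 (3.79). Bmp2 (chr2:133552159-133562896), a ligand of the BMP pathway that promotes differentiation along the villus, measured 1.78 FPKM in VEMD3 and 29.1 in VEMD4, with 3.49 in WT, 1.14 in VEMD2, 6.93 in VEMD6 and 4.78 in VEMD8 (3.44). Anxa10, an annexin of gastric epithelium, measured 1.34 FPKM in VEMD3 and 19.4 in VEMD4, with 0.03 in WT, 0.07 in VEMD2, 7.02 in VEMD6 and 39.5 in VEMD8 (3.12). Slfn4 and Bmp2 were highest in VEMD4, and Anxa10 in VEMD8. The neighbouring genes Gml and Gml2, of membrane-anchored proteins of the Ly6 superfamily, lie at chr15:74813434-74820049 and chr15:74818941-74846148. Gml measured 4.63 FPKM in VEMD3 and 34.6 in VEMD4, with 0.21 in WT, 0.95 in VEMD2, 35.7 in VEMD6 and 45.2 in VEMD8 (2.66), and Gml2 2.1 FPKM in VEMD3 and 28.9 in VEMD4, with 0.13 in WT, 0.45 in VEMD2, 37.1 in VEMD6 and 44.1 in VEMD8 (3.27). The 2 genes overlap, so reads in the shared stretch could be counted for either. Both stayed up in VEMD6 and VEMD8, unlike Ly6d, which lies in the same stretch at chr15:74762056-74763567 and had its peak in VEMD4.

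Tuba1a, an alpha-tubulin, owed its ratio to a low value in VEMD3: it measured 7.96 FPKM in VEMD3 and 54.4 in VEMD4, with 40.3 in WT, 55.6 in VEMD2, 37.4 in VEMD6 and 38.4 in VEMD8 (2.63), so VEMD4 was in the range of the other libraries and VEMD3 outside it. AA467197, a small mitochondrial protein gene, measured 13.6 FPKM in VEMD3 and 68.8 in VEMD4, with 35.5 in WT, 5.32 in VEMD2, 18.8 in VEMD6 and 27.4 in VEMD8 (2.26). Trim12a, of the same cluster of Trim genes as Trim30d, owed its ratio to VEMD4: it measured 7.39 FPKM in VEMD3 and 0.05 in VEMD4, with 11.2 in WT, 6.25 in VEMD2, 26.4 in VEMD6 and 8.6 in VEMD8 (-3.00), with VEMD4 near 0 and all other libraries above. Its near copy Trim12c, picked once its value was known, had the other direction with 8.98 FPKM in VEMD3 and 21.8 in VEMD4 (1.19). Rbp7, a retinol-binding protein, measured 5.79 FPKM in VEMD3 and 1.07 in VEMD4, with 40.8 in WT, 14.4 in VEMD2, 4.24 in VEMD6 and 3.95 in VEMD8 (-1.71), with WT highest and VEMD4 lowest.

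Averaged over their tested members, the lists followed different courses through the 6 libraries, given here as mean log2(FPKM + 1). Antiviral effectors measured 4.77 in VEMD3 and 5.72 in VEMD4, with 3.95 in WT, 4.16 in VEMD2, 4.22 in VEMD6 and 4.35 in VEMD8. Fetal and regenerative genes measured 4.90 in VEMD3 and 5.77 in VEMD4, with 3.04 in WT, 3.89 in VEMD2, 4.24 in VEMD6 and 4.18 in VEMD8. Both peaked in VEMD4 by this mean and also by their summed FPKM. Villus top genes measured 5.33 in VEMD3 and 6.37 in VEMD4, with 6.27 in WT, 4.99 in VEMD2, 6.19 in VEMD6 and 5.59 in VEMD8. Enterocyte genes measured 6.36 in VEMD3 and 7.27 in VEMD4, with 7.85 in WT, 6.99 in VEMD2, 8.65 in VEMD6 and 7.59 in VEMD8. Villus top genes were lowest in VEMD2, and which library was highest depended on the summary: VEMD4 by this mean, just above WT, but VEMD6 by summed FPKM, with 13303 against 9032 in VEMD4. By both, enterocyte genes were lowest in VEMD3, below WT in VEMD4 and highest in VEMD6. Enteroendocrine genes measured 4.33 in VEMD3 and 3.52 in VEMD4, with 3.68 in WT, 3.85 in VEMD2, 1.95 in VEMD6 and 1.27 in VEMD8, with a peak in VEMD3. Alpha-defensins measured 6.34 in VEMD3 and 4.91 in VEMD4, with 6.81 in WT, 7.11 in VEMD2, 5.36 in VEMD6 and 4.24 in VEMD8. By this mean, in which each gene weighs the same, VEMD4 came between VEMD6 and VEMD8, but by summed FPKM it was above both, with 7939 against 3056 in VEMD6 and 3807 in VEMD8. Targets of p53 measured 4.79 in VEMD3 and 4.53 in VEMD4, with 3.25 in WT, 4.32 in VEMD2, 3.17 in VEMD6 and 3.22 in VEMD8, so VEMD4 lay between VEMD2 and VEMD3 and above the other libraries. Goblet cell genes measured 6.28 in VEMD3 and 6.67 in VEMD4, with 6.46 in WT, 6.71 in VEMD2, 4.84 in VEMD6 and 5.50 in VEMD8, and VEMD6 and VEMD8 were lowest.

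**Figure D4:**
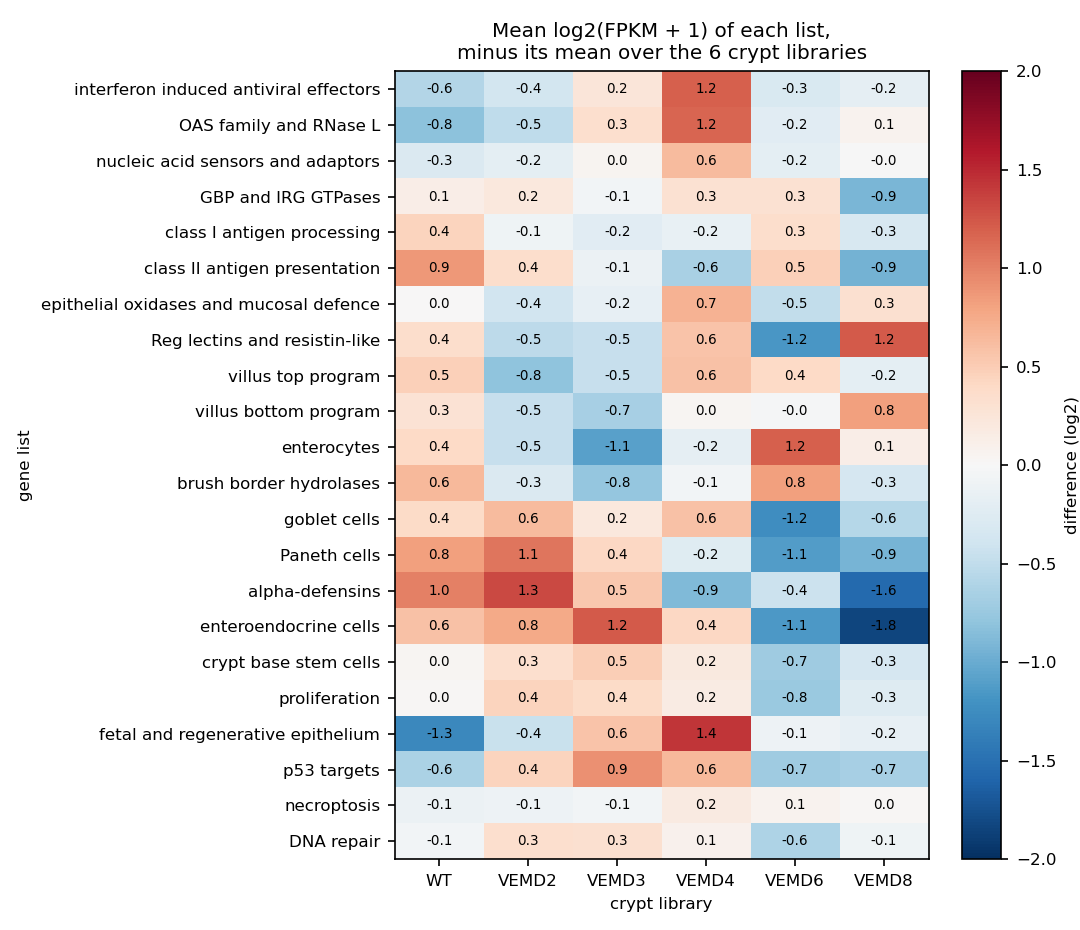
Mean log2(FPKM + 1) of the tested members of 22 lists (rows) in the 6 crypt libraries (columns), each shown as the difference from the list's own mean over the 6 libraries (colour and number, log2). In the antiviral row VEMD4 has the highest level (5.72) and VEMD3 the next (4.77); the villus and enterocyte rows turn from below to near or above their mean between VEMD3 and VEMD4.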

How the data were processed

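RNA of intestinal crypts was sequenced on a BGI-500 instrument, per the labels. Per the file headers the deposited gene values are FPKM, which the authors derived from fragments per gene by its length and the library's size, and they carry 2 decimals. HISAT2, featureCounts and edgeR and the builds GRCm38 and mm10 are named in the submitters' processing notes, without versions or an order of steps. Of 20718 lines, 3760 held no values. Symbols and coordinates came from the RefSeq table of GRCm38, which named 16916 of the 16958 genes with values. Fragment counts and thus depth are unknown. Among 1257 genes with low values, 5.49% shared the most common ratio of VEMD4 to VEMD3 and 1.67% the next, too few to recover whole reads, so no intervals from counting are given.

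From these values, ratios, counts past 2-fold, list medians and sums were computed with Python 3.11.15, numpy 2.4.6 and pandas 2.3.3, as described with the results. The code was tested on simulated data. The members and the 66 gene lists were chosen with earlier results of these data known, so they are no independent evidence. Medians were taken for lists with 3 or more tested members. Named are Setdb1, the 15 highest and 15 lowest genes whose mean reached 5 FPKM (model-number symbols left out), and in each list up to 6 members with the largest ratios, though not all of them are printed. Members of a list with smaller ratios, most of them under 2-fold, stand outside this rule. The same holds for the 6 lower genes without a symbol, Trim12c, S100a8 and S100a9. All of these were picked with their values known. Promoters are windows from the RefSeq promoter table. Alternatives were other pseudocounts, filters, scalings and folds. The stem cell samples and the table of repeats were not used here.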

Additional observations from a re-analysis of the deposited data

How the results depend on the processing

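No paired analysis was possible because VEMD3 and VEMD4 are 1 library each. Leaving a library out was impossible for the same reason, and without counts the precision of low values cannot be stated. With a pseudocount of 0.1 FPKM in place of 1, 120 genes were lower and 355 higher, and with 5 FPKM 150 were higher and 40 lower. From 3-fold on, 78 were higher and 27 lower. Without alpha-defensins and genes without a symbol, an alternative chosen after seeing the data, 35 were lower and 278 higher. Under the other filters and scalings, counts stayed within 1.5 times of 280 and 60. Scaling both libraries to the same median gene (a log2 factor of -0.138) gave 350 higher and 50 lower. Of the 114 named genes past 2-fold, 24 came under 2-fold in at least 1 setting. Their signs could not change under settings this close to the main one, so it is no support that none of them did. List medians of tuft cells (0.63, or 0.00 with no filter), germline genes (0.62, or 1.42 where means reach 5 FPKM) and neutrophil and mast cell genes (0.58, or 1.82 with the filter over VEMD3 and VEMD4 alone) rest on few members.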
